A study of Amphimedon queenslandica with 43 samples.

Results

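The 90 transcript models described here were at clearly lower levels at 9 than at 1 hour post emergence (hpe) in sponge larvae kept in natural day-night light or in constant dark, and had a small fall or none in larvae kept in constant light. They were chosen from a table of 47411 models by a rule on group medians of CPM (a larva's count of a model, scaled to the same total in every larva). The age change of a model in a regime was the log2 ratio of its median CPM at 9 hpe to that at 1 hpe, with 1 CPM added to both. Members had an age change of -0.8 or lower in both day-night and constant dark, and above -0.4 in constant light. They also had an identifier starting with Aqu2.1, a median of at least 20 CPM in some group, a count in all 21 larvae at 1 hpe and a mean count below 2500. Of the 7196 models that met these further conditions, 224 had the fall in both day-night and constant dark. Those 224 divided into the 90 members, 76 models that fell by as much in all 3 regimes, and 58 whose change in constant light lay between the limits.

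Amphimedon queenslandica is a marine demosponge that broods its embryos and releases swimming larvae, which later become competent to settle and turn into a juvenile. Its larvae have no neurons, and a ring of pigmented, ciliated cells at the posterior end senses light and steers them away from it. The level of a transcript falls when it is degraded faster than it is made.

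Each library came from 1 larva, sequenced with CEL-Seq2, which reads the 3' end of polyadenylated RNA. Larvae were collected in a 30-minute window from 11 am and put under their regime by 0.5 hpe. There were 7 day-night, 7 constant-dark and 7 constant-light larvae at 1 hpe, and 8, 7 and 7 at 9 hpe. The constant dark regime passed 6.6% of daylight through a neutral density filter, so it was dim and not lightless, and constant light came from a full-spectrum tube. Because emergence was at one time of day, age and hour of sampling cannot be told apart, and no parent or strain is given for the larvae.

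None of the 90 identifiers was found as text in the RefSeq gene table for this species (0 of 90), and the files do not pair them with names. No source used here links Aqu2.1 identifiers to RefSeq genes, so this 0 does not mean that members lack a RefSeq gene. No function, cell type or sequence is therefore given for any member. Whole larvae were sequenced, so fewer cells of a type and less RNA per cell cannot be told apart.

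Total counts per larva ran from 1890954 to 3927366. At 9 hpe they ran from 2660350 to 3677302 in constant light, from 1890954 to 3342040 in day-night and from 2093537 to 3485926 in constant dark, so constant-light libraries were deeper on the whole, and the part of depth in the members' levels was not tested. On the second principal component of log2 CPM, which held 6.07% of the variance, 8 larvae stood apart from the rest. They were constant-dark replicates 3, 5 and 6 and constant-light replicate 7 at 1 hpe, and constant-light replicates 2, 3, 5 and 7 at 9 hpe. The plots that show single larvae mark these 8, and the main descriptions are also given without them.

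Over the 90 members, the median level in a single day-night larva ran from 90.4 to 107 CPM at 1 hpe, with a median larva at 98.8, and from 24.7 to 59.8 CPM at 9 hpe, with a median of 39.5. In constant dark it ran from 94.3 to 131 CPM at 1 hpe (median 103) and from 30.7 to 58.8 CPM at 9 hpe (median 41.7). In constant light it ran from 64.9 to 90.9 CPM at 1 hpe (median 73.5) and from 62.8 to 98.1 CPM at 9 hpe (median 78.4). The lowest constant-light larva at 9 hpe thus lay above the highest larva of the other regimes at that age, while at 1 hpe the constant-light range lay mostly below the ranges of the other regimes. The rule used these values, so the order of the groups is a description of the choice and was not tested. The members together took 13382 CPM of the median constant-light larva at 9 hpe, 6659 CPM of the median day-night larva and 8293 CPM of the median constant-dark larva.

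**Figure D1:**
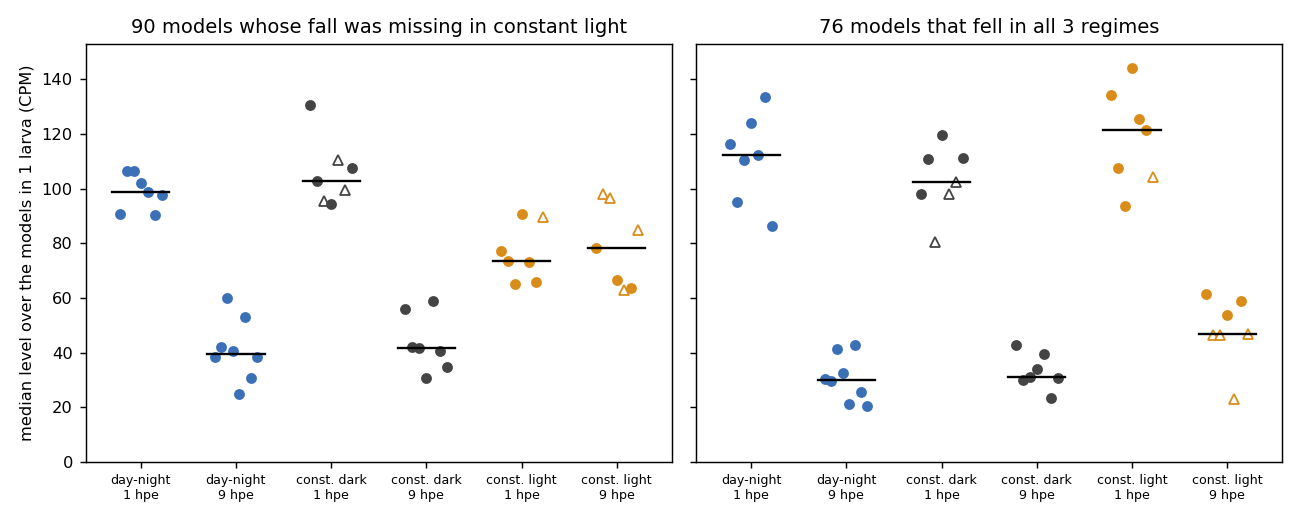
Median level over the models in each larva (CPM), by regime and age, for the 90 members (left) and for the 76 models that fell in all 3 regimes (right). Each point is 1 larva, open triangles are the 8 larvae apart on the second principal component, and lines are group medians. On the left the constant-light larvae at 9 hpe range from 62.8 to 98.1 CPM, above all day-night and constant-dark larvae of that age. On the right they range from 22.98 to 61.6 CPM.

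Of the 7 constant-light larvae at 9 hpe, the 4 that stood apart had median levels of 62.8 to 98.1 CPM, with a median of 90.8. The other 3 had 63.7 to 78.4 CPM, with a median of 66.6. Both sets lay above the day-night and constant-dark larvae of that age. 

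Among the members, the median age change was -1.24 on the log2 scale in day-night (from -3.08 to -0.81), -1.27 in constant dark (from -4.32 to -0.80) and -0.10 in constant light (from -0.39 to 4.78). The change was -1 or lower, a halving or more, for 66 of 90 members in day-night and likewise for 66 in constant dark. In constant light 53 members were slightly lower at 9 hpe, within the limit of the rule, and 37 were higher. CPM scaled to library totals shifted the median of the 7196 models that met the further conditions by 0.21 in day-night, 0.26 in constant dark and 0.13 in constant light. Relative to that shift the members stood at -1.44, -1.53 and -0.23. Without the 8 apart larvae the members' median age changes were -1.24 in day-night, which holds none of the 8, -1.20 in constant dark and -0.08 in constant light.

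The missing fall had a part at each age. At 9 hpe the median over members of the log2 ratio of constant light was 0.90 against day-night, or 1.87-fold, and 0.81 against constant dark. Constant light then had the highest of the 3 medians for 85 of 90 members. At 1 hpe the median log2 ratio was -0.42 against day-night and -0.39 against constant dark, and constant light had the lowest of the 3 medians for 65 of 90. Over all 7196 models the corresponding medians were 0.03 and -0.05 at 9 hpe, and 0.11 and 0.07 at 1 hpe. The constant-light median was below the day-night median for 2 members at 9 hpe and 71 at 1 hpe. Over the 7196 models it was below for 45.9% at 9 hpe and 36.6% at 1 hpe. For the other counts given here no share over the 7196 was taken. A larger share of the difference in age change lay at 9 hpe for 63 members and at 1 hpe for 27. At least 2-fold more in constant light than in day-night at 9 hpe was seen for 40 members, at least 2-fold less at 1 hpe for 13, and both for 5. Without the 8 apart larvae the median log2 ratio of constant light to day-night was 0.87 at 9 hpe and -0.43 at 1 hpe, and constant light had the highest median for 81 members at 9 hpe and the lowest for 67 at 1 hpe. A low start and a high end in constant light each raise the chance of passing the rule, so both are given as a description of the choice, with no test.

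**Figure D2:**
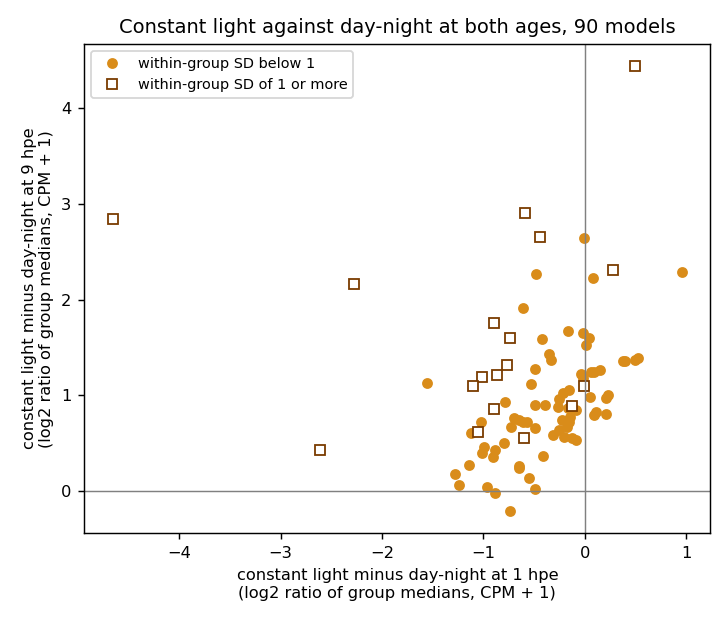
Log2 ratio of constant-light to day-night group medians (CPM + 1) at 1 hpe (horizontal) and at 9 hpe (vertical) for each of the 90 members. Open squares are the 18 members with a within-group standard deviation of 1 or more. Of the 90 members, 88 lie above 0 at 9 hpe, and 71 lie below 0 at 1 hpe. Of the 7196 models that met the further conditions, which are not drawn, 45.9% were below 0 at 9 hpe and 36.6% at 1 hpe.

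The 5 members in which constant light did not have the highest median at 9 hpe were Aqu2.1.09234_001, Aqu2.1.12807_001, Aqu2.1.18599_001, Aqu2.1.37444_001 and Aqu2.1.39670_001, picked out after their values were seen. In all 5 the constant-light median was the lowest at 1 hpe. The rule fixes part of this, so nothing is read from it. A member whose constant-light median was not above that of a regime at 9 hpe had to start below that regime. At 1 hpe the median of Aqu2.1.39670_001 was 230 CPM under day-night, 206 CPM under constant dark and 124 CPM under constant light. At 9 hpe the same 3 medians were 117, 118 and 115 CPM. By these medians constant light was thus below the other regimes at 1 hpe, and all 3 were close together at 9 hpe. Single constant-light and constant-dark larvae overlapped at 1 hpe. Without the 8 apart larvae the 9 hpe medians were 136 CPM in constant light, 117 CPM in day-night and 118 CPM in constant dark. Aqu2.1.39670_001 did not then meet the rule, with an age change in constant dark of -0.76.

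Larvae overlapped for most members. All 7 constant-light larvae lay above all 8 day-night larvae at 9 hpe for 4 of 90 members (1.04% of the 7196 models), namely Aqu2.1.21520_001, Aqu2.1.26630_001, Aqu2.1.38711_001 and Aqu2.1.41631_001. They lay above all 7 constant-dark larvae for 0 members (0.334% of the 7196), and above all 15 larvae of the other regimes for 0 members (0.0695%). Without the 8 apart larvae, which leaves 3 constant-light larvae at 9 hpe, these counts were 26 (4.24% of the 7196 models with the same larvae), 19 (2.33%) and 11 (0.820%). All 7 day-night larvae at 1 hpe lay above all 8 at 9 hpe for 23 members (3.20%), and the same held in constant dark for 24 members (2.52%). In constant light it held for 0 members (1.07%). Because the rule used these contrasts, nothing is read from the shares.

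Single constant-light larvae differed in how many members they held high, and the rule favoured members that are high in these larvae. Replicate 2 at 9 hpe was above all 15 larvae of the other regimes for 40 of 90 members, replicates 1 and 3 for 35 each, replicate 6 for 33, replicate 7 for 30 and replicate 4 for 25. Replicate 5 was above them for 13 members, the fewest. Of the 7196 models, the share above all 15 larvae ran from 6.98% to 9.53% over the 7 larvae, and replicate 5 had 9.24%. Replicate 5 was also the lowest of the 7 by its median level, and it was above the day-night median of 9 hpe for 67 members, where the other 6 larvae were for 71 to 84.

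Aqu2.1.41631_001 had the highest mean level of the members. It ran from 558 to 971 CPM in day-night larvae at 1 hpe (median 827), from 766 to 978 CPM in constant dark (median 899) and from 607 to 870 CPM in constant light (median 744). At 9 hpe it ran from 286 to 517 CPM in day-night (median 352), from 345 to 693 CPM in constant dark (median 465) and from 588 to 996 CPM in constant light (median 735). At 9 hpe every constant-light larva was above every day-night larva, while 1 constant-dark larva, at 693 CPM, lay within the constant-light range. At 1 hpe the 3 regimes overlapped.

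Aqu2.1.26630_001 had the smallest overlap of constant light with the other regimes at 9 hpe. Its constant-light larvae then ran from 294 to 453 CPM (median 371), day-night larvae from 192 to 287 CPM (median 213) and constant-dark larvae from 171 to 328 CPM (median 194). Constant-dark replicate 1, at 328 CPM, was the only larva of the other regimes within the constant-light range. At 1 hpe it ran from 336 to 504 CPM in day-night (median 392), from 377 to 597 CPM in constant dark (median 484) and from 374 to 489 CPM in constant light (median 417). The constant-light median of 371 CPM at 9 hpe thus lay just below the lowest constant-light larva of 1 hpe, at 374 CPM. Aqu2.1.25576_001, next by the same measure, stood at 69.5 to 155 CPM in constant light at 9 hpe (median 117), at 17.98 to 78.7 CPM in day-night (median 38.1) and at 28.1 to 80.7 CPM in constant dark (median 53.5). It did not meet the rule without the 8 apart larvae, with an age change in constant dark of -0.49.

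At 1 hpe, the 2 members with every constant-light larva below all 14 larvae of the other regimes (0.0695% of the 7196) were Aqu2.1.28198_001 and Aqu2.1.34372_001, picked out after their values were seen. Aqu2.1.34372_001 ran at 1 hpe from 348 to 483 CPM in constant light (median 387), from 508 to 769 CPM in day-night (median 629) and from 495 to 694 CPM in constant dark (median 575). At 9 hpe it ran from 199 to 453 CPM in constant light (median 319), from 96.4 to 306 CPM in day-night (median 188) and from 161 to 417 CPM in constant dark (median 232). The constant-light larvae were thus apart from the others at 1 hpe and overlapped both regimes at 9 hpe.

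**Figure D3:**
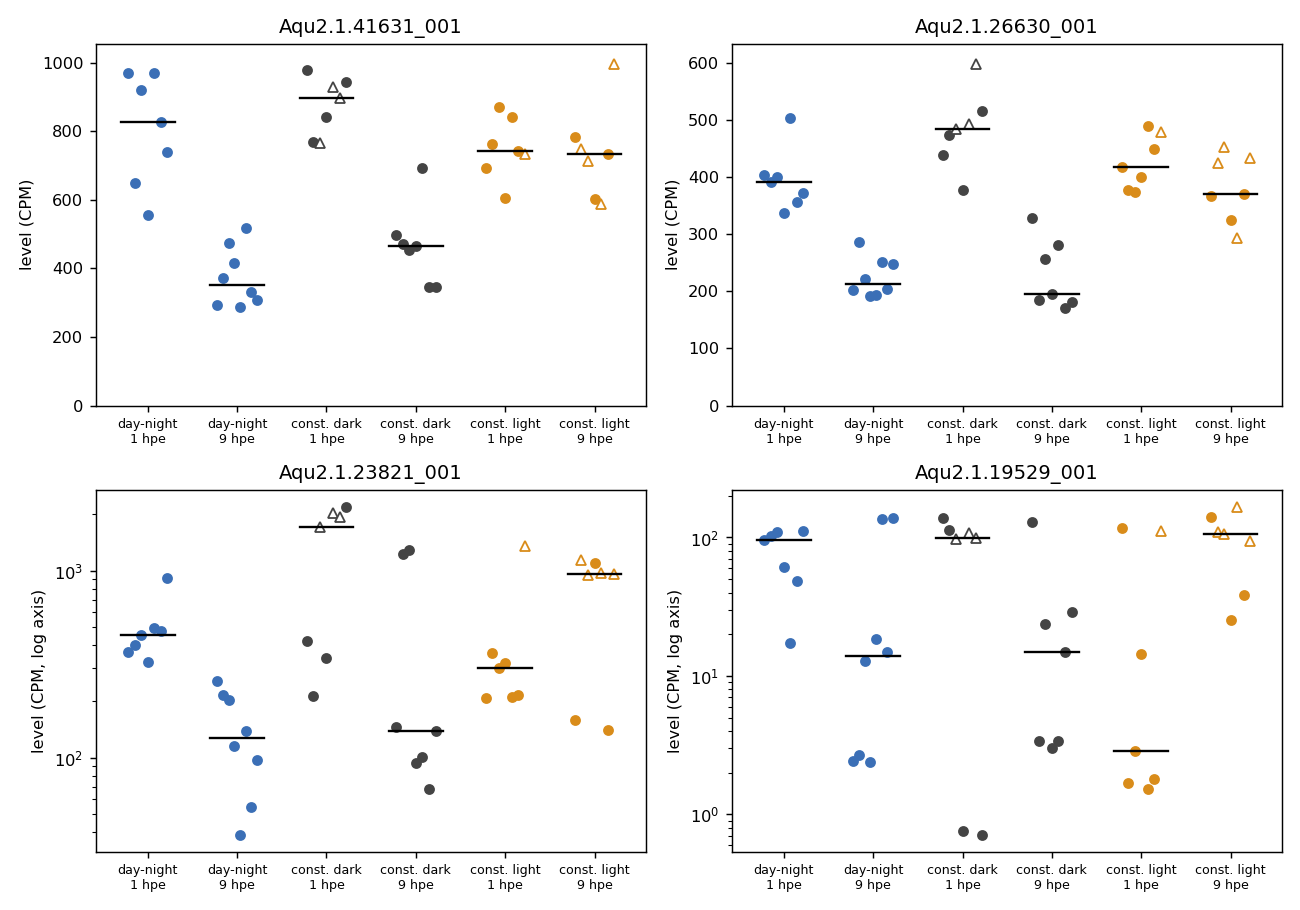
Level (CPM) of 4 members in every larva, by regime and age; the upper axes are linear and the lower axes logarithmic. Points are larvae, open triangles the 8 larvae apart on the second principal component, and lines group medians. Aqu2.1.41631_001 and Aqu2.1.26630_001 show graded levels, while Aqu2.1.23821_001 and Aqu2.1.19529_001 vary widely among larvae of a group.

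Members differed in how much larvae of 1 group varied. The standard deviation of log2(CPM + 1) among larvae of a group, averaged over the 6 groups, was below 0.3 for 6 members, from 0.3 to 1 for 66 and 1 or more for 18. In constant light the median age change of these 3 classes was -0.12, -0.15 and 0.87. All 9 members with a constant-light age change of 1 or more, a doubling, were among the 18 most variable. The median of the mean levels in the 3 classes was 362, 87.9 and 33.7 CPM, so the most variable class was also the lowest in level. Across the 90, the median standard deviation was 0.49 to 0.53 in the 3 groups at 1 hpe and, at 9 hpe, 0.67 in day-night, 0.59 in constant dark and 0.60 in constant light. Over the 7196 models it was 0.36 to 0.40 in the 6 groups, so the median member varied more in every group. A rule on medians of few larvae can pass variable models more often, so this is a description of the choice. Without the 8 apart larvae, 6 of the 6 least variable members met the rule, 52 of the 66 and 10 of the 18. By group means these counts were 3, 39 and 7, and 3, 29 and 7 members met the rule whichever single larva was left out.

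**Figure D4:**
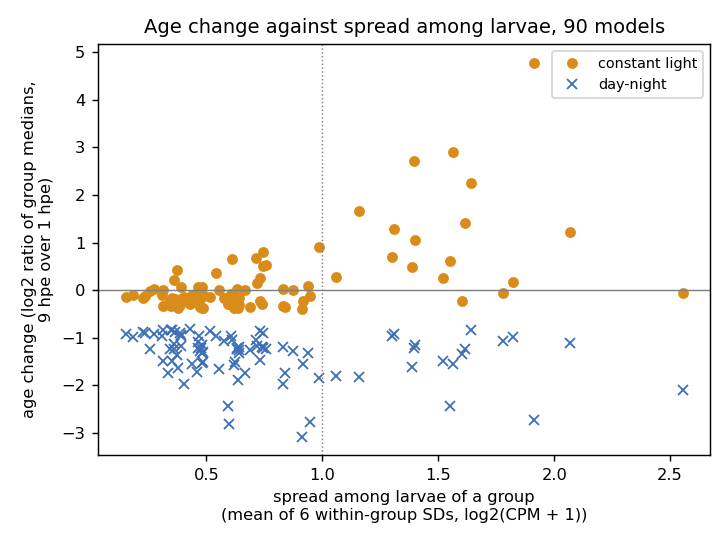
Age change (log2 ratio of group medians, 9 hpe over 1 hpe) in constant light (circles) and day-night (crosses) against the mean within-group standard deviation of log2(CPM + 1), for the 90 members. The dotted line marks a standard deviation of 1. The 9 constant-light values of 1 or more all lie to the right of it.

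Aqu2.1.19529_001 had the highest age change in constant light, 4.78, and levels that differed widely between larvae of a group. In constant light at 1 hpe 2 larvae stood at 112 and 117 CPM, 1 at 14.5 CPM and the other 4 at 1.51 to 2.87 CPM, with a median of 2.87 CPM. At 9 hpe the constant-light larvae ran from 25.3 to 167 CPM, with a median of 105. Day-night larvae ran from 17.2 to 112 CPM at 1 hpe (median 96.6) and from 2.38 to 137 CPM at 9 hpe (median 13.8), and constant-dark larvae from 0.705 to 138 CPM (median 98.5) and from 3.01 to 130 CPM (median 14.8). Larvae below 4 CPM occurred in every group except constant light at 9 hpe and day-night at 1 hpe, where the lowest larvae had 25.3 and 17.2 CPM. With the 8 apart larvae left out its constant-light medians were 2.34 CPM at 1 hpe and 38.6 CPM at 9 hpe, and its age change there was 3.57.

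Aqu2.1.02093_001, with the next highest age change in constant light at 2.90, ran there from 1.68 to 66.0 CPM at 1 hpe (median 2.23) and from 6.10 to 51.8 CPM at 9 hpe (median 23.1). In day-night it ran from 8.002 to 64.1 CPM (median 14.7) and then from 0.898 to 56.9 CPM (median 4.39). Its groups overlapped almost wholly, and the change lay in the middle of the groups and not in their ranges. It did not meet the rule without the 8 apart larvae, with an age change in constant dark of -0.19.

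Aqu2.1.23821_001 was second in mean level and varied with the 8 apart larvae. In those 8 it ran from 947 to 2031 CPM, and in the other 35 larvae from 38.4 to 2199 CPM with a median of 216. Of the other 35, 4 reached 947 CPM and the rest stayed at or below 910 CPM. At 9 hpe in constant light 5 of 7 larvae held 947 to 1137 CPM and the other 2 held 141 and 160 CPM. In day-night it ran from 325 to 910 CPM at 1 hpe (median 454) and from 38.4 to 256 CPM at 9 hpe (median 127). In constant dark it ran from 213 to 2199 CPM (median 1716) and from 68.3 to 1284 CPM (median 139). Of the 5 high constant-light larvae at 9 hpe, whose group median was 960 CPM, 4 were among the larvae that stood apart. Without the 8 apart larvae the constant-light median of 9 hpe was 160 CPM, the age change in constant light was -0.69 in place of 1.66, and this member did not meet the rule.

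Aqu2.1.41853_001 had the lowest sum of the age changes in day-night (-1.49) and constant dark (-4.06). At 1 hpe it ran from 3.48 to 149 CPM in day-night (median 9.85), from 3.04 to 165 CPM in constant dark (median 87.5) and from 1.71 to 7.26 CPM in constant light (median 4.84). At 9 hpe it ran from 0.874 to 70.9 CPM in day-night (median 2.86), from 0.865 to 47.3 CPM in constant dark (median 4.30) and from 3.66 to 10.9 CPM in constant light (median 6.01). Without the 8 apart larvae its age change in constant light was -0.13, against 0.26 with them. The 14 constant-light larvae were all low, at both ages. Most constant-dark larvae were high at 1 hpe, and several day-night larvae were high at each age. In constant dark at 9 hpe the highest larva had 47.3 CPM and the next 6.60 CPM.

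Day-night and constant-dark larvae were also compared with each other. This comparison is the least touched by the rule, which treats both regimes alike, but it is not free of it. The edgeR quasi-likelihood test across 14188 models, at an adjusted p below 0.05, called 0 of 90 members at 1 hpe (0.0141% of all models) and 0 at 9 hpe (1.71%). It also called 0 for the difference in age change (0.937%). The rule asked for a fall in both regimes and so limits that difference. It also left out models that stayed high with age in either regime, which limits the difference at 9 hpe. Nothing is read from the 0 at 9 hpe or from the 0 for the difference. At an unadjusted p below 0.05 there were 7 members at 1 hpe (8.25% of all models), 12 at 9 hpe (10.6%) and 6 for the difference (9.05%), near the share over all models. The median log2 fold change of constant dark against day-night was 0.06 over the members at 1 hpe and 0.05 at 9 hpe. Over all models it was -0.01 and 0.00. A call missed at this spread does not show equal levels in the 2 regimes.

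The members farthest apart by fold change between day-night and constant dark at 9 hpe had wide errors, and ranking by fold change alone favours variable members. Aqu2.1.40344_001 ran from 3.46 to 11.0 CPM in constant dark (median 6.02) and from 7.87 to 334 CPM in day-night (median 18.6). Its log2 difference was -3.39 ± 1.11 SE, with an adjusted p of 0.130 by edgeR, of 0.00877 by DESeq2, the lowest over the alternatives, and of 0.782 at the highest. Most day-night larvae were higher, but 2 of 8 lay within the constant-dark range. Aqu2.1.25323_001 stood at -1.75 ± 0.87 SE, with an edgeR adjusted p of 0.468, and of 0.320 to 0.823 over the alternatives. It did not meet the rule without the 8 apart larvae, with an age change in constant light of -0.50. On the higher side, Aqu2.1.09234_001 ran from 0.880 to 18.7 CPM in constant dark (median 7.90) and from 0 to 5.72 CPM in day-night (median 2.07). Its log2 difference was 2.19 ± 0.82 SE, with an edgeR adjusted p of 0.239, and of 0.104 to 0.713 over the alternatives. Aqu2.1.23821_001 stood at 1.58 ± 0.61 SE, with an edgeR adjusted p of 0.256, and of 0.145 to 0.847 over the alternatives. Smaller differences with smaller errors were also present. Aqu2.1.42624_001 stood at 0.65 ± 0.21 SE, with an edgeR adjusted p of 0.127. Aqu2.1.21520_001 stood at 1.09 ± 0.36 SE, with an edgeR adjusted p of 0.132. Both were picked out here after their values were seen.

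Leaving out a single larva moved some of these counts from 0. The share of all models called in these fits is not given here, so nothing is read from the calls. Without day-night replicate 6 at 9 hpe, Aqu2.1.13935_001 and Aqu2.1.24530_001 were called as higher in constant dark at 9 hpe, and Aqu2.1.24530_001 also for the difference in age change. Without day-night replicate 3 at 9 hpe, Aqu2.1.42624_001 was called as higher in constant dark. Without day-night replicate 7 at 1 hpe, Aqu2.1.40344_001 was called for the difference in age change.

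Within groups, members varied together a little more than models in general. The correlation of their deviations from the group mean of log2(CPM + 1) over 43 larvae had a median of 0.10 over 4005 pairs of members and 0.02 over all pairs of the 7196 models. A correlation above 0.5 was found for 4.87% of member pairs, 0.611% of all pairs and 7.86% of pairs of the 76 models that fell in all regimes. All pairs share the larvae and their depths, and the median member was more abundant, at a mean of 87.0 CPM against 56.1 CPM, so these values are a description. The correlations were taken with the 8 apart larvae only kept in, and the part of those larvae was not tested. The closest pair was Aqu2.1.02396_001 with Aqu2.1.33051_001, at 0.97. At 9 hpe the median of Aqu2.1.02396_001 was 48.8 CPM under day-night, 40.2 CPM under constant dark and 84.2 CPM under constant light, and that of Aqu2.1.33051_001 was 59.4, 45.8 and 100.3 CPM. Near-identical copies can share 3' reads, and whether these 2 models do was not tested.

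The 76 models that fell in all 3 regimes started as the members did in day-night. Their median level per larva at 1 hpe ran from 86.3 to 134 CPM in day-night and from 93.5 to 144 CPM in constant light, where the members had 64.9 to 90.9 CPM. At 9 hpe it ran from 20.6 to 42.6 CPM in day-night, from 23.2 to 42.9 CPM in constant dark and from 22.98 to 61.6 CPM in constant light. For these models the median log2 ratio of constant light to day-night at 9 hpe was 0.23, with 30 of the 76 below 0. Their median age change in constant light was -1.09 against -1.46 in day-night. A fall in day-night was asked of both sets, which favours a ratio above 0 at 9 hpe. The 2 sets were divided by their change in constant light, so their difference there restates the choice. Whether the 2 sets differ in kind or in degree was not tested.

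The limits of the rule fell within a continuum. Just inside the constant-light limit lay Aqu2.1.12225_001 at -0.39 and just outside Aqu2.1.44268_001 at -0.40. At the day-night limit Aqu2.1.18599_001 lay inside at -0.81 and Aqu2.1.16670_001 outside at -0.79, and at the constant-dark limit both Aqu2.1.42624_001, inside, and Aqu2.1.30435_001, outside, lay at -0.80. Only 39 of the 90 met the rule whichever single larva was left out, and 49 met it when group means replaced medians.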

How the data were processed

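The values are whole-number counts, as the authors deposited them, for 43 larvae sequenced with CEL-Seq2, per the labels' protocols. The name of the deposited table marks spike-in and bacterial features as left out. The sources used here do not give the aligner, counting tool, build or annotation. Deposited counts reached at most 8192, a value found 23 times, and no member exceeded 6957. A second, normalized table was not used. Groups came from sample titles. The replicates are separate larvae. None of 133 replicate pairs agreed within sampling noise (chi-square per degree of freedom of 11.5 or more). The p-values measure the spread between larvae.

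Members and lists were chosen with earlier results of these data known. The named models follow a rule: the 2 highest in mean CPM, the 2 with the largest summed fall, the 2 with the highest constant-light age change, the 2 farthest each way between constant dark and day-night at 9 hpe, the 2 with the least overlap at 9 hpe, and those next to each limit. All other models named were picked out after their values were seen, whether or not this is said beside them. Counts were tested with edgeR 4.0.16 in R 4.3.3 (filterByExpr at a minimum count of 10, TMM, robust quasi-likelihood F test, 1 model with 6 group means, Benjamini-Hochberg adjustment over 14188 models). All 90 members passed the filter. Planned counts of edgeR calls on the contrasts the rule used (the age change in each regime and every contrast of constant light) are not reported, since they restate the choice of members. Alternatives were DESeq2 1.42.0, limma 3.58.1 (voom), other scalings and filters, fewer groups, a replicate block, and larvae left out.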

Additional observations from a re-analysis of the deposited data

Results flagged for a closer look

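Levels of 10 named members, and the members' median and summed levels, were looked at in 6 groups, 72 sets of larvae in all. In 13 sets the highest larva lay far from the next one. The cutoff would flag about 5% of sets if levels were normally distributed. CPM levels can be skewed to high values, and many of these members were named for extreme values. No excess over chance is therefore read from the 13. None of the 13 concerned the median or summed level. The sets share larvae, and the cause was not tested.

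Constant-light replicate 7 at 1 hpe, one of the 8 larvae that stood apart, had 1350 CPM of Aqu2.1.23821_001 (next 364 CPM) and 154 CPM of Aqu2.1.25323_001 (next 71.2 CPM). Day-night replicate 7 at 1 hpe had 910 CPM of Aqu2.1.23821_001 (next 496 CPM) and 531 CPM of Aqu2.1.40344_001 (next 61.9 CPM). For Aqu2.1.02093_001, constant-light replicate 4 at 1 hpe had 66.0 CPM (next 19.7 CPM), constant-dark replicate 6 at 9 hpe 68.8 CPM (next 18.04 CPM) and day-night replicate 3 at 9 hpe 56.9 CPM (next 24.5 CPM).

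At 1 hpe, constant-light replicate 6 had 270 CPM of Aqu2.1.25576_001 (next 97.6 CPM), day-night replicate 3 had 403 CPM of Aqu2.1.25323_001 (next 102 CPM) and day-night replicate 5 had 504 CPM of Aqu2.1.26630_001 (next 404 CPM). At 9 hpe, constant-dark replicate 7 had 47.3 CPM of Aqu2.1.41853_001 (next 6.60 CPM), constant-dark replicate 1 had 130 CPM of Aqu2.1.19529_001 (next 28.97 CPM) and day-night replicate 5 had 334 CPM of Aqu2.1.40344_001 (next 68.7 CPM).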

How the results depend on the processing

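The rule gave 153 members with TMM-scaled CPM, 74 of them among the 90, and 152 with median-of-ratios scaling, 73 of them among the 90. Over the original 90, the TMM medians of the age change stood at -1.41 (day-night), -1.52 (constant dark) and -0.22 (constant light). Under 7 further settings the rule gave 68 to 107 members, among them 85 by group means (49 shared) and 107 without the 8 apart larvae (68 shared). Without 1 larva it gave 81 to 103, of which 77 to 90 were shared. With the original 90 members kept fixed, the median age changes and the ratios of constant light to day-night moved by less than the spread between larvae under every alternative run. That spread was the larger standard deviation of the 2 groups compared, 0.19 to 0.40 on the log2 scale, and not an error of the median. The 90 were chosen on these values, so the small moves are not read as support for the choice. Between constant dark and day-night, DESeq2 called 1 member at 9 hpe and 1 for the difference in age change, both Aqu2.1.40344_001. Over all models it called 365 at 9 hpe and 183 for the difference, where edgeR called 242 and 133. Nothing is read from these member calls. Without 1 larva the counts ran from 0 to 2 at 9 hpe, from 0 to 1 for the difference, and stayed at 0 at 1 hpe. The other 6 settings gave 0 in each. Over all models these 6 called 0 to 2 at 1 hpe, 199 to 240 at 9 hpe and 104 to 132 for the difference. Replicate numbers do not mark pairs: of 105 same-numbered pairs across groups, 4 had correlated deviations above 0.1. With the replicate block 0 members were called in any of the 3 comparisons of constant dark with day-night. Small fold changes of constant dark against day-night at 9 hpe turned sign. Aqu2.1.02093_001 had 0.06, and a value of -0.02 (-0.0201) with limma voom, and -1.18 to 0.81 without 1 larva. Without 1 larva Aqu2.1.19529_001 ran from -1.69 to 0.11 and Aqu2.1.26630_001 from -0.18 to 0.029. With 7 or 8 larvae a group, differences as small as these could not be resolved.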
